A study of Mus musculus with 12 samples.

Results

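The gene expression of the challenged aorta was compared between mice with a smooth muscle deletion of Socs3 (smSocs3-KO) and their wild-type (WT) littermates at day 3 of BAPN + AngII infusion. The comparison takes 6 of the 12 arrays of the series, 3 labelled smSocs3-KO at day 3 (replicates 2, 3 and 5) and 3 labelled WT at day 3 (replicates 1, 3 and 4), chosen by their titles. All mice were male, homozygous for the floxed Socs3 allele and of mixed strain (129S5/SvEvBrd, C57BL6 and SJL). smSocs3-KO mice carried in addition a Cre recombinase driven by the smooth muscle SM22 promoter, and WT mice lacked the Cre. Which cells of the aorta lost the gene was not measured on the arrays. Both groups received BAPN at 150 mg/kg/day and AngII at 1000 ng/kg/min by osmotic minipump. The other 6 arrays, 3 of each genotype without infusion, entered the fit for its estimate of spread and served to show which differences were present before challenge. The age of the mice was not given in the labels.

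BAPN blocks the lysyl oxidases, which crosslink collagen and elastin, and AngII is a pressor hormone that acts on vascular smooth muscle. Given together they lead to aortic dissection in mice, a tearing of the medial layer. Socs3 is a feedback inhibitor of cytokine receptors that signal through gp130 and Jak kinases, and it is itself a target of the transcription factor Stat3. In tissues that lack Socs3, IL-6 family cytokines are known to leave Stat3 active for longer, and acute phase proteins, complement components and the C/EBP factors are among the known targets of this signalling. The arrays measure RNA of the whole vessel, in which fewer cells of a type and less RNA per cell cannot be told apart.

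All values are log2 processed signals set against the 75th percentile of their array, so that 0 is the signal at that percentile, and a difference of 1 is a doubling. Differences are given as smSocs3-KO minus WT, with the standard error of the limma fit. A gene was called when its Benjamini-Hochberg adjusted p was under 0.05 over all 22769 genes tested. On the 6 day 3 arrays, 55.4% to 60.4% of spots were well above background and none was saturated. All 6 WT arrays and smSocs3-KO replicate 1 before challenge shared slide 1, while slide 2 held the 5 remaining smSocs3-KO arrays. At day 3, slide and genotype therefore cannot be told apart, and no slide held both groups. The array of WT replicate 4 had the lowest mean correlation with its group among the day 3 arrays (r = 0.967 across genes, which are not independent replicates, against up to 0.981 on the others). Its r was 0.970 and 0.964 with WT replicates 1 and 3 at day 3. With the WT arrays before challenge it was 0.969, 0.977 and 0.982, and with the smSocs3-KO arrays before challenge 0.957, 0.985 and 0.977. Why it lay as near to unchallenged arrays was not tested. Calls of named genes and list medians that change most without WT replicate 4 at day 3 are given with and without that array. Nothing in the labels says whether the arrays of a group came from separate mice, so p-values measure only the spread between these arrays.

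Of the 22769 genes, 218 were called higher (0.957% of the genes tested) and 35 were called lower (0.154%) in the aorta labelled smSocs3-KO. The median difference of the called genes was 2.0 for the higher genes (range 0.77 to 8.82) and -1.36 for the lower genes, whereas the median of all genes tested was -0.08. The 3 arrays of each group lay apart from the 3 of the other in all 253 called genes. Over all genes tested, the day 3 groups lay apart with smSocs3-KO higher in 7.87% and with smSocs3-KO lower in 12.7%. Positive differences were found in 40.5% of all genes tested. Among the higher genes, 32 were not well above background on any WT array at day 3, and 164 were well above background on all 6 arrays. At the threshold of the study's methods (unadjusted p of less than 0.01 with a ratio over 4 or under 0.25), 224 genes were higher (0.984%) and 28 were lower (0.123%), and 121 genes passed both rules. With slide as a fixed term, no gene was called at the adjusted threshold. That term rests on smSocs3-KO replicate 1 before challenge, set against smSocs3-KO replicates 3 and 4 of slide 2 before challenge. Replicate 1 was the only smSocs3-KO array on slide 1, and no WT array was on slide 2. This replicate had the lowest mean correlation with its group of all arrays (r = 0.964 across genes). All values given with slide as a fixed term or fixed block depend on that array. In the fit with slide as a fixed term, all 218 higher and all 35 lower genes kept the sign of their difference, with medians of 1.71 and -1.26. These genes were chosen by their day 3 difference, and that fit reuses the same day 3 arrays. Kept signs therefore cannot tell slide from genotype.

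No fall of Socs3 was seen in the group labelled smSocs3-KO. Its level was 2.21, 2.30 and 0.64 on the WT arrays and 3.31, 2.28 and 4.13 on the arrays labelled smSocs3-KO. The groups overlapped at replicate 3 of each genotype, and the difference of 1.52 ± 0.53 (SE, n = 3 each) was not called (limma adjusted p = 0.208). With slide as a fixed term the difference was 0.47. The probe lies at chr11:117827480-117827539 on mm9, minus strand. Whether that stretch belongs to the deleted part is not given in the sources used here, so this probe does not check the deletion, and genotype is known only from the labels. The arrays are therefore called KO-labelled from here on. Of the 8 SOCS family genes, feedback inhibitors of cytokine receptors, none was called and the median was 0.37. Socs7 (0.73) and Socs1 (0.38) had groups that lay apart, while Socs2 (0.37) and Cish (0.67) had groups that overlapped.

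The 11 measured Jak kinases and Stat factors carry the cytokine signal from receptor to nucleus. All 11 had positive differences (40.5% of all genes did), between 0.13 and 1.22 with a median of 0.34. In 7 the groups lay apart, against 7.87% of all genes in that direction, but none was called. Stat3 was at 4.22, 4.21 and 3.77 on the WT arrays and 4.86, 4.43 and 5.35 on the KO-labelled arrays, a difference of 0.81 ± 0.24 (limma adjusted p = 0.144). Tyk2 differed by 1.22, Jak3 by 1.19, Stat2 by 0.85 and Stat5a by 0.74, each without a call. Among 12 measured genes of IL-6 family cytokines and receptors, only Il6ra, the ligand-binding chain of the IL-6 receptor, was called. It was at 1.88, 2.07 and 1.90 on the WT arrays and 2.95, 2.90 and 3.48 on the KO-labelled arrays, a difference of 1.16 ± 0.22 (limma adjusted p = 0.0375). Osmr, the oncostatin M receptor, differed by 1.09 and Il6st, which encodes gp130, by 0.85, both with groups apart and without a call. Il6 itself varied from -3.41 to 3.51 on the WT arrays and from -0.40 to 3.61 on the KO-labelled arrays, and the groups overlapped. The median of the 12 genes was 0.16 and fell to -0.19 without WT replicate 4.

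Acute phase and Stat3 target genes held more calls than any other of the 47 lists. Of 28 measured members, 9 were called higher (0.957% of all genes tested were) and none lower. All 28 had positive differences (40.5% of all genes did), and their median was 2.02. In 17 of the 28 the groups lay apart, against 7.87% of all genes in that direction. Saa3, a serum amyloid A protein made outside the liver, had the largest difference of any called gene. It was at -1.80, -3.23 and -5.43 on the WT arrays, of which 2 were well above background, and 5.46, 3.33 and 7.23 on the KO-labelled arrays, a difference of 8.82 ± 1.63 (limma adjusted p = 0.0322). Without WT replicate 4 its adjusted p was 0.051 and its difference 7.85. Lcn2, an iron-binding neutrophil gelatinase-associated lipocalin, was at 1.71, 1.04 and -0.94 on the WT arrays and 4.39, 3.34 and 6.02 on the KO-labelled arrays, a difference of 3.98 ± 0.71 (limma adjusted p = 0.0297). KO-labelled replicate 5 was the highest and replicate 3 the lowest of its group in both genes.

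The other called members of this list had lower spread among the WT arrays. Chi3l1, a chitinase-like glycoprotein of inflamed tissue, was at -4.10, -3.96 and -3.04 on the WT arrays and 1.86, 0.99 and 0.45 on the KO-labelled arrays, a difference of 4.80 ± 0.42 (limma adjusted p = 0.002). Chi3l1 was not well above background on all 6 day 3 arrays. The lowest signal of any probe well above background was -4.68, -4.09 and -4.32 on the WT arrays, so its difference is limited by the floor. Serpina3n, a secreted inhibitor of serine proteases, was at 2.99, 2.81 and 1.58 against 5.41, 5.81 and 7.37, a difference of 3.74 ± 0.55. Steap4, a metalloreductase of the endosome and plasma membrane, was at -2.56, -2.30 and -2.44 against 1.15, 0.54 and 1.13, a difference of 3.37 ± 0.56. In these 3 genes the groups lay apart by more than the range of either. Lbp, which binds bacterial lipopolysaccharide, was at 2.05, 2.35 and 1.73 against 4.29, 4.42 and 4.81, a difference of 2.46 ± 0.28 (limma adjusted p = 0.00724). Saa2 was not well above background on any WT array and was at least 7.87-fold higher on the KO-labelled arrays (limma adjusted p = 0.0392, and 0.0506 without WT replicate 4). The C/EBP factors Cebpb and Cebpd, which bind acute phase promoters, were higher by 1.28 ± 0.23 and 1.25 ± 0.26. Their KO-labelled arrays lay between 3.54 and 4.27 and between 6.08 and 7.05, above WT levels of 2.48 to 2.63 and 5.21 to 5.43, and Cebpd was lost without WT replicate 4 (limma adjusted p = 0.0682). Slpi (5.53), Saa1 (3.95) and Itih4 (2.17) had groups apart and passed the study's threshold without a call (limma adjusted p = 0.0845, 0.067 and 0.0539). Serpina3 and Saa genes have close paralogs whose RNA may bind the same probes.

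**Figure D1:**
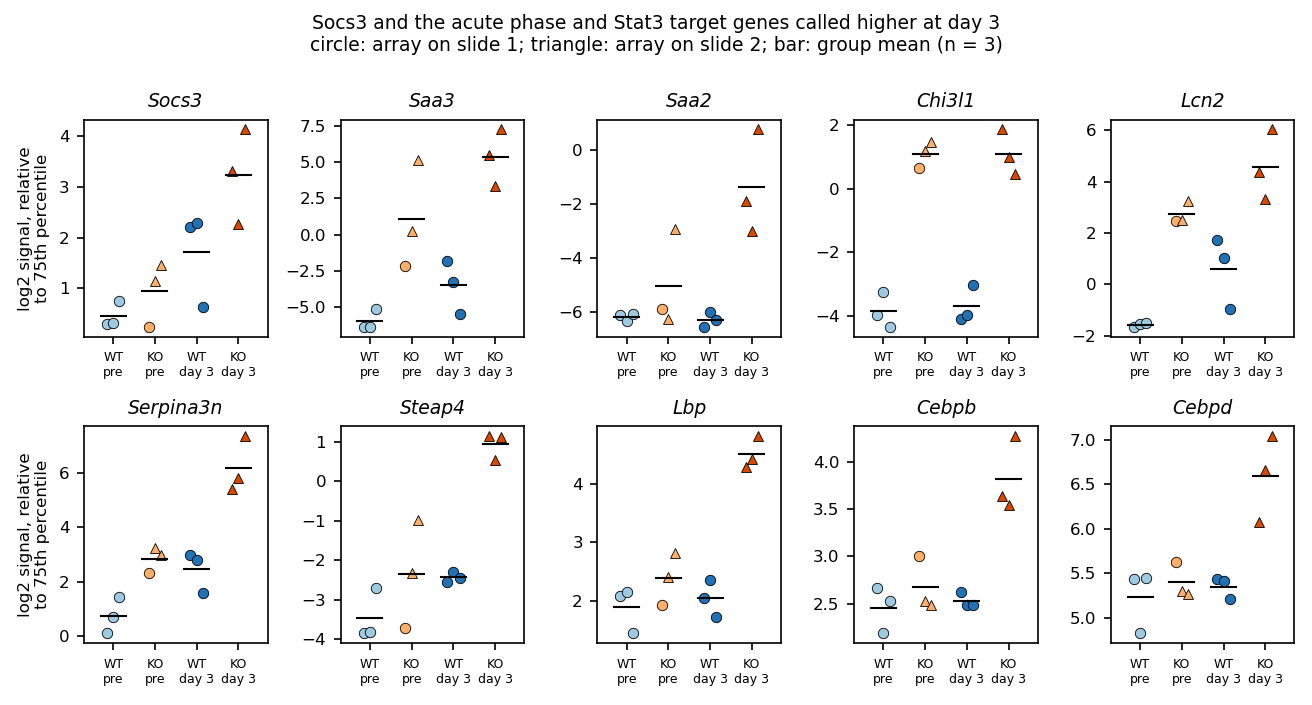
Log2 signal relative to the 75th percentile of the array (y axis) for Socs3 and the 9 acute phase and Stat3 target genes called higher, in the 4 groups (x axis), with 1 point per array, marked by slide, and a bar at the mean of 3 arrays. The KO-labelled arrays at day 3 lay above all WT arrays at day 3 in the 9 called genes and overlapped them in Socs3, and Chi3l1 stood equally high in the smSocs3-KO group before challenge.

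Part of these differences was present before the infusion. Before challenge, the median over the 28 genes was 0.58. Chi3l1 already differed by 4.96, close to its difference at day 3, and Lcn2 differed by 4.31. Saa3 was not well above background on any WT array before challenge and stood at -2.17, 0.27 and 5.12 on the smSocs3-KO arrays. In contrast, Lbp, Cebpb and Cebpd differed by 0.49, 0.21 and 0.16 before challenge, and their interaction of genotype and challenge had adjusted p-values of 0.433, 0.791 and 0.879 (limma). On smSocs3-KO replicate 1 before challenge, the array that shared slide 1 with the WT arrays, the list's median lay 0.39 above the WT mean before challenge, compared with 0.70 and 0.85 on the 2 arrays of slide 2. Without WT replicate 4, 8 of the 28 genes were called higher, with Saa2, Saa3 and Cebpd lost and Itih4 and Il6st gained, and the median difference at day 3 was 1.22. With slide as a fixed term the median was 1.64.

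Mesothelial markers differed between the groups in the same direction as the acute phase genes. Relative to the WT mean, the medians of the 2 lists on WT replicates 1, 3 and 4 were 1.13, -1.13 and 0.09 (mesothelium) and 0.20, 0.29 and -0.42 (acute phase). On KO-labelled replicates 2, 3 and 5 they were 2.36, 2.39 and 2.70 (mesothelium) and 1.75, 1.02 and 2.73 (acute phase). Whether the 2 lists vary together was not tested. All 9 marker genes of the mesothelium, the cell layer that covers serous surfaces, had positive differences (40.5% of all genes did) with a median of 2.58. Of the 9, 8 had groups apart (7.87% of all genes did in that direction). The study's threshold was passed by 6 (0.984% of all genes passed it as higher), though none was called. Krt19, a keratin, was at -0.09, -2.22 and -0.95 on the WT arrays and 1.44, 1.38 and 2.34 on the KO-labelled arrays (limma adjusted p = 0.0767). Upk1b, a uroplakin, was at -1.57, -4.00 and -2.93 against -0.29, -0.18 and 0.65. The defining genes Msln (2.50) and Wt1 (2.62) had groups apart as well, and Krt18 (0.52) had overlapping groups. The summed linear signal of the 9 markers was 17.3 to 29.4 on the WT arrays and 49.1 to 85.4 on the KO-labelled arrays, in units of the 75th percentile signal. These markers differed before challenge too, with a median of 2.02. Their part in the differences of Saa3, Slpi, Lcn2, Dmkn and the other genes called higher was not tested.

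Dmkn, Prg4 and Serpinb5 were also called higher. Dmkn, dermokine of epithelial surfaces, was at 1.13, -1.05 and -1.33 on the WT arrays and 3.63, 3.18 and 5.19 on the KO-labelled arrays, a difference of 4.42 ± 0.68 (limma adjusted p = 0.0181), and it differed by 5.62 before challenge. Prg4, the lubricating proteoglycan lubricin, was at 2.54, 2.83 and 0.43 against 4.89, 5.76 and 6.57, a difference of 3.81 ± 0.61. Serpinb5, an epithelial serpin, was not well above background on any WT array and was at least 6.96-fold higher on the KO-labelled arrays. Prg4 was measured by 2 probes, which differed in size (3.81 and 1.72) and not in sign.

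The promoters of this group are shown because 9 of its members were called higher and it includes known targets of Stat3, whose dimers bind the palindrome TTCNNNGAA. In the RefSeq windows of GRCm38.p6 from 250 bases before to 50 bases after a gene start, that palindrome stood in 6 of 25 windows of the list (24 genes had a window), and in 8.30% of all 32851 windows. Of the 7 called members with a window, only Steap4 held it. It stood in 26 of 204 windows of the genes called higher (12.7%), 1 of 24 windows of the genes called lower (4.17%) and 7.14% of the windows of all tested genes. The 250 bases before the start are printed for Socs3 (chr11:117969367-117969616, minus strand), Steap4 (chr5:7960222-7960471, plus strand) and Itih4 (chr14:30886226-30886475, plus strand), with each palindrome in capitals, and for Saa3 (chr7:46715677-46715926, minus strand), the gene with the largest difference, which holds none. Sequences read 5′ to 3′ along the gene.
Socs3: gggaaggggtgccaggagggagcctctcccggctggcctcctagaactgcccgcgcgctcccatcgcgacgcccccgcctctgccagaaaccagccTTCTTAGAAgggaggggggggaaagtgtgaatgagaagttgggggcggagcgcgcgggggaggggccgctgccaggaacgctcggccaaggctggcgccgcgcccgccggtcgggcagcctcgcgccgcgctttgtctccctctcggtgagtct
Steap4: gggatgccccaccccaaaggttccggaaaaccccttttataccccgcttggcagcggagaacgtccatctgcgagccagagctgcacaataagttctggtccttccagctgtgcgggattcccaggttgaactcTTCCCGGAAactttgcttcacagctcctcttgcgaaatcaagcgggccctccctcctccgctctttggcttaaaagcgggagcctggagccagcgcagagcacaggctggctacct
Itih4: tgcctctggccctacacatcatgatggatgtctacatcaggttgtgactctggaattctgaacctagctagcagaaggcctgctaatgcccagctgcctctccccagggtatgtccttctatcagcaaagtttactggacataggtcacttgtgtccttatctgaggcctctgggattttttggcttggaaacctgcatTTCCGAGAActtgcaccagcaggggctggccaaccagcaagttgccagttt
Saa3: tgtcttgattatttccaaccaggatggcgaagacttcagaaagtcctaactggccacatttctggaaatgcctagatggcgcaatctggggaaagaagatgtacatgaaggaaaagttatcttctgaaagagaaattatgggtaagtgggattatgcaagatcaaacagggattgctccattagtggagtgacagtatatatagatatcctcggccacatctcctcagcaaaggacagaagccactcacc
The palindrome of Socs3 began 154 bases before the gene start, that of Steap4 116 bases and that of Itih4 51 bases before it.

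Complement genes encode a cascade of serum proteins that marks and lyses cells. Of 18 measured genes, 5 were called higher (0.957% of all genes tested were) and none lower. All 18 had positive differences (40.5% of all genes did) and the median was 1.06. In 11 of the 18 the groups lay apart, against 7.87% of all genes in that direction. C3, the central component, was at 6.62, 6.56 and 6.61 on the WT arrays and 8.36, 8.59 and 8.20 on the KO-labelled arrays, a difference of 1.79 ± 0.21 (limma adjusted p = 0.00724). WT replicate 4 did not stand apart here. Cfb, a component of the alternative pathway, was higher by 1.63 ± 0.23, C2 and C4b, components of the classical pathway, by 1.69 ± 0.26 and 1.62 ± 0.30, and C1ra, a protease of the C1 complex, by 1.29 ± 0.22. Before challenge C3 differed by 1.82, C4b by 1.54 and Cfb by 1.21, while C2 and C1ra differed by 0.71 and 0.60. Without WT replicate 4 the list's median was 1.07, and 6 members were called higher. With slide as a fixed term the median was 0.66.

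Metallothioneins, small metal-binding proteins, gave the smallest adjusted p. Mt1 was at 6.23, 6.44 and 6.70 on the WT arrays and 8.65, 8.88 and 9.05 on the KO-labelled arrays, a difference of 2.40 ± 0.17 (limma adjusted p = 0.000678). Mt2 was at 5.99, 6.87 and 5.89 against 8.84, 8.77 and 9.08, a difference of 2.65 ± 0.25. Mt1 was the only gene still called with slide as a random block (limma adjusted p = 0.017). These genes were singled out after their values had been seen.

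Cytokine and leukocyte genes gave single calls rather than groups. Il33, an alarmin of stromal nuclei, was at 3.41, 2.60 and 1.78 on the WT arrays and 4.95, 4.24 and 5.28 on the KO-labelled arrays, a difference of 2.23 ± 0.39 (limma adjusted p = 0.0282), and was the only call among 7 other cytokines of inflammation, whose median was 0.83, and 0.27 without WT replicate 4. Of 25 chemokines none was called, and 23 had positive differences (40.5% of all genes did), with a median of 0.59. The study's threshold was passed by 3 (0.984% of all genes passed it as higher). The chemokine median was 0.18 without WT replicate 4 and 0.06 with slide as a fixed term. Cxcl13, which attracts B cells, was well above background on 1 of the 3 WT arrays and differed by 6.24 (limma adjusted p = 0.098) and Cxcl14 by 4.46 (0.0806 by the same test), both with groups apart. KO-labelled replicate 5 held the highest value of both. Of 15 genes of alternatively activated macrophages, 2 were called higher (0.957% of all genes tested were). The median was 0.68, and 0.32 without WT replicate 4. Clec10a, a lectin of macrophages and dendritic cells, was higher by 2.16 ± 0.44 and Cd163, the haemoglobin scavenger receptor, by 1.78 ± 0.34. Before challenge they differed by -0.09 and 0.02. Clec10a was lost without WT replicate 4 (limma adjusted p = 0.0563).

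Interferon-stimulated genes had a median of 1.22 over 30 genes, 28 of them positive (40.5% of all genes were), and none was called. Isg15, an ubiquitin-like protein, was at 2.50, 2.39 and 0.16 on the WT arrays and 3.23, 5.18 and 3.93 on the KO-labelled arrays (limma adjusted p = 0.149). Oas3, a sensor of double-stranded RNA, was not well above background on any WT array and was at least 2.51-fold higher, without a call. The median of the 30 genes fell to 0.61 without WT replicate 4, the array with the lowest values. Of 8 MHC class II genes, which present antigen, none was called, 7 were positive (40.5% of all genes were) and the median was 1.15. It was 0.64 without WT replicate 4 and 0.16 with slide as a fixed term.

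Leukocyte markers were measured beside these genes, and none of their lists gave a call. All 8 macrophage markers had positive differences (40.5% of all genes did), with a median of 0.79. In 3 the groups lay apart (7.87% of all genes in that direction). The summed linear signal of the 8 markers was 57.0 to 132 on the WT arrays and 143 to 149 on the KO-labelled arrays. Without WT replicate 4 the median was 0.39. Among 7 neutrophil markers S100a8 differed by 3.55 and S100a9 by 2.91, with overlapping groups, while Mpo and Elane were negative, and the list's median was -0.27. The medians of the T cell (6 genes), B cell (5) and mast cell (6) markers were 0.35, 0.39 and 1.16. The part of these cells in the cytokine and macrophage differences was not tested.

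Of 6 fibroblast markers, 2 were called higher (0.957% of all genes tested were) and the median was 0.39. Dpt, the matrix protein dermatopontin, was at -0.53, -0.14 and -0.51 on the WT arrays and 1.15, 2.12 and 1.54 on the KO-labelled arrays, a difference of 1.99 ± 0.33 (limma adjusted p = 0.023). Pi16, a marker of adventitial fibroblasts, was at 5.61, 6.81 and 6.51 against 7.35, 8.30 and 8.20, a difference of 1.64 ± 0.33. Dcn (0.48), Pdgfra (0.30), Lum (0.12) and Col1a1 (-0.46) were not called. The 6 smooth muscle markers were all measured, with a summed linear signal of 2094 to 2625 on the WT arrays and 1701 to 2014 on the KO-labelled arrays, and none was called. Their median was -0.27, and it was 0.01 without WT replicate 4 and 0.37 with slide as a fixed term. Myh11, the smooth muscle myosin heavy chain, differed by -0.06, Acta2 by -0.34 and Tagln by -0.37. Tagln, which encodes the SM22 whose promoter drives the Cre, differed by 0.42 with slide as a fixed term.

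Genes that were not well above background on any WT array gave the largest bounds. Col6a5, a collagen VI chain, was at least 11.1-fold higher, Rgs16, a regulator of G protein signalling, at least 10.2-fold, Adora2a, an adenosine receptor, at least 9.39-fold and 4831426I19Rik at least 5.83-fold. Adora2a was at -2.07, -1.36 and 0.03 on the KO-labelled arrays. Before challenge Col6a5 was at -2.26 and -1.40 on the smSocs3-KO arrays of slide 2 and at -6.04 on smSocs3-KO replicate 1 of slide 1. Chl1, a cell adhesion molecule of the nervous system, was detected on each of the 6 arrays and differed by 4.34 ± 0.52 (limma adjusted p = 0.00739). Serpina3i and Serpina3c, paralogs of Serpina3n, were higher by 3.87 ± 0.66 and 3.60 ± 0.73, the latter lost without WT replicate 4 (limma adjusted p = 0.0651). Pfkfb3, an activator of glycolysis (1.39 ± 0.22), was the only call among 21 genes of glycolysis and hypoxia with a median of 0.02.

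A set of genes called higher at day 3 stood apart on a single array before challenge. Psap, the precursor of the lysosomal saposins, was at 0.37, -0.15 and 0.42 on the WT arrays and 4.36, 5.10 and 4.70 on the KO-labelled arrays, a difference of 4.51 ± 0.92 (limma adjusted p = 0.0467). Before challenge it was at 4.53 on smSocs3-KO replicate 4 and between -0.23 and 0.65 on the other 5 arrays. Raly, an RNA-binding protein, Ddit4, an inhibitor of mTOR complex 1, Ap2b1, an adaptor of clathrin-coated vesicles, and Tnxb, the matrix protein tenascin X, showed the same pattern. Their differences at day 3 were 3.60, 3.56, 3.84 and 4.46. Their levels on smSocs3-KO replicate 4 before challenge were 3.08, 3.01, 0.65 and 2.06. Of the 218 higher genes, 28 (12.8%) lay on that array more than 1 above every other array before challenge, against 0.795% of all genes tested. For smSocs3-KO replicates 1 and 3 before challenge the counts were 1 (0.459%) and 0 of 218, against 0.747% and 0.0439% of all genes tested. The difference of Psap was 1.69 with slide as a fixed term and its call was lost without WT replicate 4 (limma adjusted p = 0.0548), as was that of Ap2b1 (0.0547 by the same test). It was the only one of 24 lysosome genes called, and the list's median was 0.05. Each of these 5 genes was measured by 1 kept probe, and why smSocs3-KO replicate 4 stood apart was not tested.

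**Figure D2:**
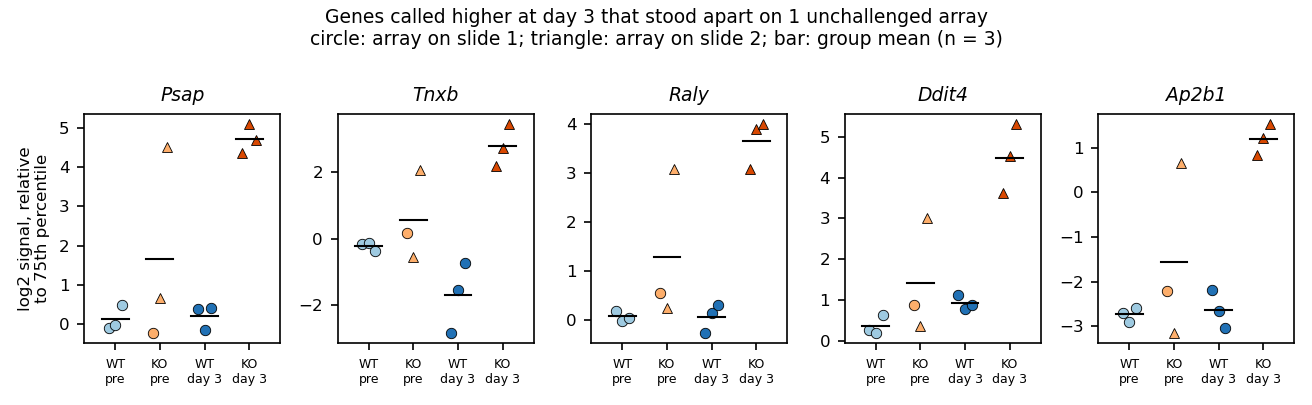
Log2 signal relative to the 75th percentile of the array (y axis) of 5 genes called higher at day 3, in the 4 groups (x axis), with 1 point per array marked by slide and a bar at the mean of 3 arrays. In each gene smSocs3-KO replicate 4 before challenge lay with or near the KO-labelled day 3 arrays and apart from the other arrays before challenge.

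The 35 genes called lower moved with challenge by a median of 0.40 in WT and -0.82 in the KO-labelled group. They were chosen by their difference on the same day 3 arrays, so shifts apart are partly built in by that choice. The KO-labelled shift also sets arrays of both slides against slide 2. No gene was called for the interaction of genotype and challenge. Arc, an immediate early gene of neurons that also responds to growth signals, was at 1.74, 0.52 and -0.66 on the WT arrays and -2.11, -3.73 and -2.98 on the KO-labelled arrays, a difference of -3.48 ± 0.56 (limma adjusted p = 0.0216). It was the only call among 19 immediate early genes, whose median was -0.08, and Egr1 (-1.16) and Egr2 (-1.31) were not called. Egr2 differed by -2.24 without WT replicate 4 (limma adjusted p = 0.0379). Hbegf, a growth factor for the EGF receptor, was at 4.38, 3.94 and 3.16 against 2.83, 1.42 and 1.45, a difference of -1.93 ± 0.38 (limma adjusted p = 0.042). Hbegf had been between 2.11 and 2.65 on all 6 arrays before challenge, so that the WT arrays lay above that range, 2 KO-labelled arrays below it and 1 just above it. Diras2, a Ras-like GTPase, was at 2.0, 2.61 and 1.62 against 0.14, -0.46 and -1.03, a difference of -2.52 ± 0.32, and it had differed by 0.30 before challenge. Plcxd1, a phospholipase C family member, differed by -2.11 ± 0.29 and 4631405J19Rik differed by -2.14 ± 0.28.

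Smaller and tighter falls were seen in other genes of this group. Ano1, a calcium-activated chloride channel of smooth muscle, was at 5.84, 5.75 and 5.50 on the WT arrays and 4.90, 4.23 and 3.88 on the KO-labelled arrays, a difference of -1.36 ± 0.24 (limma adjusted p = 0.029). Cdkn2b, the CDK inhibitor p15, was at 0.63, 1.03 and 1.36 against -0.32, -0.39 and 0.21, a difference of -1.18 ± 0.22, and was the only call among 11 D-type cyclins and CDK inhibitors, whose median was 0.03, and without WT replicate 4 the calls were 1 higher and 3 lower. Tiam2, an exchange factor for Rac (-1.21 ± 0.23), Tnfrsf19, a TNF receptor family member (-1.26 ± 0.26), and Myo10, an unconventional myosin of filopodia (-1.14 ± 0.22), also had groups apart. Tnfrsf19 was lost without WT replicate 4 (limma adjusted p = 0.062). Bend6 (-1.49 ± 0.29) had differed by -1.32 before challenge. Of the 35 lower genes, 6 were not well above background on any KO-labelled array.

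**Figure D3:**
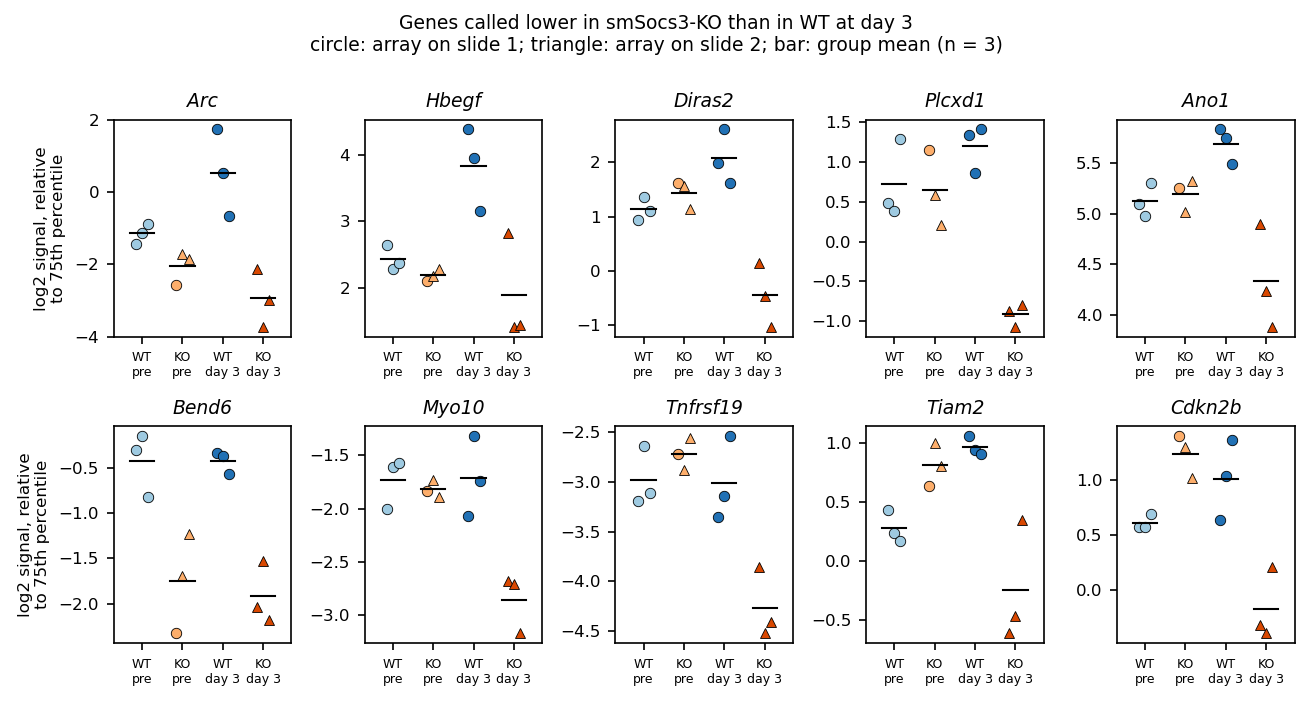
Log2 signal relative to the 75th percentile of the array (y axis) of 10 genes called lower at day 3, in the 4 groups (x axis), with 1 point per array marked by slide and a bar at the mean of 3 arrays. The KO-labelled day 3 arrays lay below all WT day 3 arrays in each gene, while before challenge Tiam2 and Cdkn2b lay higher in smSocs3-KO than in WT.

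The genes called at day 3, chosen by their difference there, were also compared between the groups before challenge. The median difference of the 218 genes was 0.57 before challenge and 2.0 at day 3, 192 (88.1%) had the same sign before challenge, and in 101 (46.3%) the groups before challenge lay apart in the same direction, which holds for 6.49% of all genes tested. In 1 gene they lay apart in the opposite direction. Within slide 1, smSocs3-KO replicate 1 lay above all 3 WT arrays before challenge in 142 of the 218 genes (65.1%), compared with 35.0% of all genes. In WT the median of these genes moved by -0.000436 with challenge, and in the KO-labelled groups it moved by 1.35. Of the 35 lower genes, 8 (22.9%) lay apart the same way before challenge, against 4.6% of all genes, and 2 the opposite way. Their median difference before challenge was -0.09. At the adjusted threshold 6 genes were called before challenge, and no gene was called for the interaction of genotype and challenge, where 1215 genes had an unadjusted p under 0.05.

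**Figure D4:**
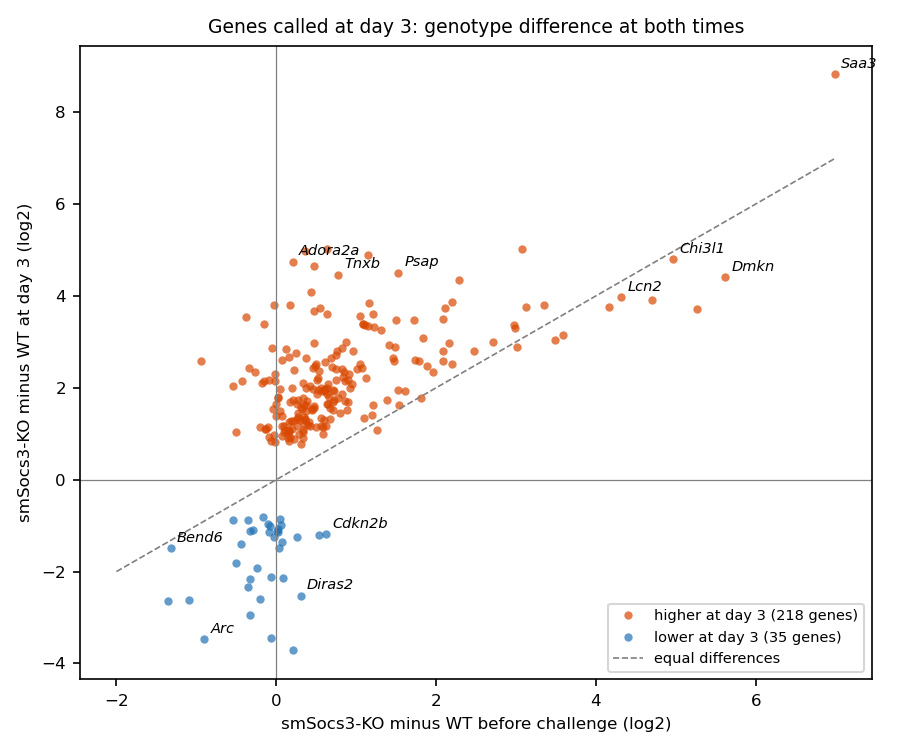
Difference between smSocs3-KO and WT (log2) at day 3 (y axis) against the difference before challenge (x axis) for the 218 genes called higher and the 35 called lower at day 3, with 1 point per gene and a dashed line of equal differences. Chi3l1, Lcn2 and Dmkn lay near or under the line, and differences of genes not well above background in 1 group are plotted as fitted.

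Cell cycle genes had negative differences whose size and calls depended on WT replicate 4. All 37 measured genes of mitosis and the kinetochore had negative differences, with a median of -1.50, but none was called. Of all genes tested, 40.5% had positive differences and most had negative ones. Mki67, the gene of the proliferation marker Ki67, was at 4.53, 4.65 and 1.69 on the WT arrays and 3.16, 1.66 and 0.94 on the KO-labelled arrays (limma adjusted p = 0.289). Kif20a, a kinesin of cytokinesis, was at 2.70, 2.87 and 0.17 against 0.79, -0.31 and -0.83. In both genes WT replicate 4 lay within the range of the KO-labelled arrays and WT replicates 1 and 3 lay above it. Relative to the WT mean, the list's median was 0.90 on WT replicates 1 and 3, -1.80 on WT replicate 4 and -0.65, -1.65 and -2.20 on KO-labelled replicates 2, 3 and 5. Without WT replicate 4 the median difference was -2.40 and 32 of the 37 genes were called lower. Over all 22769 genes the number of calls without this array was 615, higher and lower calls together. The 40 genes of DNA replication had a median of -0.36, with 36 negative and none called, and without WT replicate 4 the median was -0.89 and 5 were called lower. Before challenge the medians of both lists were 0.11 and 0.13.

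**Figure D5:**
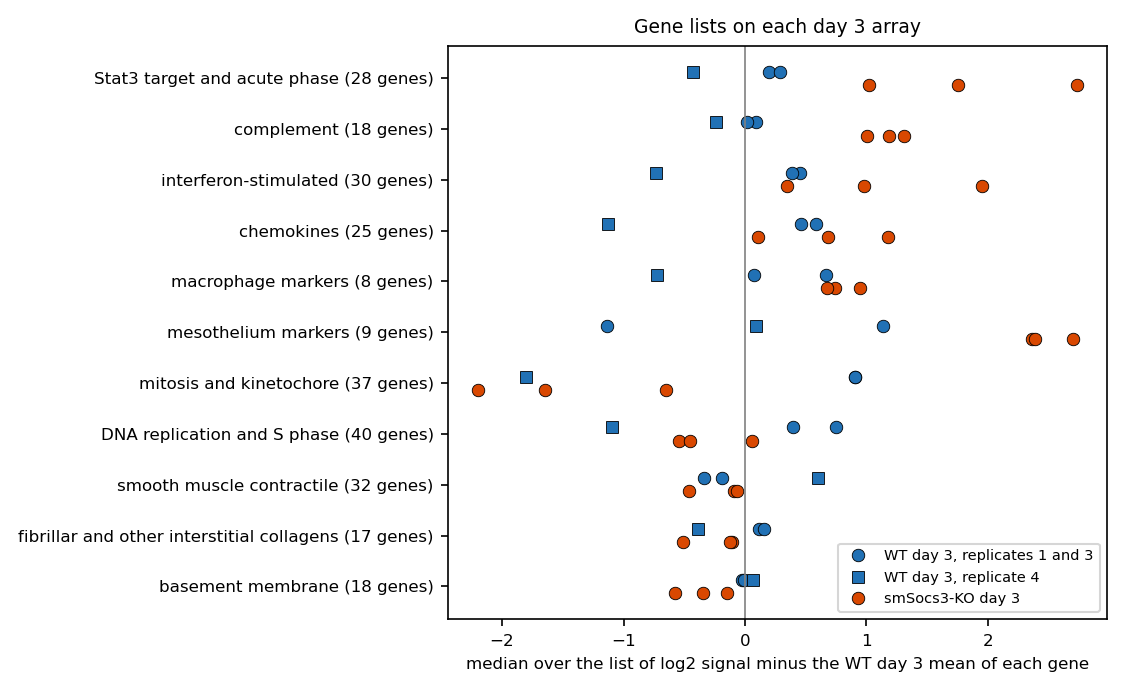
Median over each gene list of log2 signal minus the WT day 3 mean of each gene (x axis) for 11 lists (y axis), with 1 point per day 3 array and WT replicate 4 as a square. The KO-labelled arrays lay above all WT arrays in the acute phase, complement and mesothelium lists, and WT replicate 4 lay with the KO-labelled arrays in the mitosis list.

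Structural genes of the vessel wall gave no call in any of 7 lists. The called matrix genes Tnxb, Dpt and Col6a5, given above, were in none of these lists. The median was -0.20 for 32 contractile genes of smooth muscle, -0.30 for 17 fibrillar and interstitial collagens, -0.25 for 23 collagen processing genes, -0.12 for 16 elastic fibre genes, -0.38 for 18 basement membrane genes, -0.34 for 15 matricellular genes and 0.16 for 18 metalloproteinases and inhibitors, beside -0.08 for all genes. Without WT replicate 4 the median was 0.06 for the contractile genes, -0.58 for the collagens, -0.29 for the elastic fibre genes, -0.71 for the matricellular genes and 0.07 for the metalloproteinases. Without that array 1 collagen processing and 1 matricellular gene were called lower and 1 gene of the metalloproteinase list higher. With slide as a fixed term the collagen and elastic fibre medians were 0.09 and 0.08. The groups lay apart in the lower direction in 6 collagen processing, 5 basement membrane and 4 collagen genes. They did in 2 contractile, 2 elastic fibre, 1 matricellular and 2 metalloproteinase list genes, and in 12.7% of all genes. In the collagen list 1 gene passed the study's threshold as lower. Casq2, calsequestrin of the sarcoplasmic reticulum, differed by -1.01 and Npnt, the integrin ligand nephronectin, by -0.93, the largest absolute differences of the contractile list. Col15a1, a collagen of basement membrane zones, differed by -2.56 and Tnc, tenascin C, by -1.86, both without a call. Leprel1, a collagen prolyl hydroxylase, differed by -1.80 with groups apart (limma adjusted p = 0.062). Eln, elastin, differed by -0.93 and Mfap4, a protein of elastic fibres, by 1.35. Mmp9, a gelatinase, was well above background on 1 of the 3 WT arrays and differed by 1.51 and Adam17, a shedding protease that releases Hbegf, by -0.96.

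Other signalling and stress lists gave no call. The medians were -0.21 for 18 TGF-beta ligands, receptors and targets, 0.12 for 8 angiotensin system genes, 0.25 for 16 genes of endothelial activation (0.07 without WT replicate 4), -0.04 for 14 heat shock genes and -0.11 for 21 genes of the unfolded protein response. In a list of 18 genes of proteins assayed elsewhere in this work, none was called, with a median of -0.02. Those assays measured protein in rapamycin experiments and did not compare these genotypes, so the RNA values are no check on them. The markers of endothelium, white and brown fat, nerve, adrenal cortex, striated muscle, kidney, thymocytes and red blood cells gave no call, with medians from -0.63 for 4 red blood cell genes to 1.11 for 6 white adipocyte genes. In the white adipocyte list the summed linear signal was 13.7 to 28.1 on the WT arrays and 17.2 to 64.3 on the KO-labelled arrays.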

How the data were processed

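Total RNA of aorta was hybridised by the authors to 12 1-colour Agilent arrays. The authors deposited the scanner files, which hold an intensity per spot, background-subtracted and spatially detrended by Feature Extraction (10.7.1.1 per the file headers, and 9.5.1.1 in the submitters' processing notes). The authors also deposited a table of linear signal values whose columns share 1 distribution, by a method not given in the sources used here, which served as an alternative. Control and outlier spots were left out, repeat spots were averaged per probe, and each array's 75th percentile was subtracted on the log2 scale. A probe was kept (32291 of 55681) where some group had it well above background on every array, and the brightest stood for its gene. Of 22769 genes, 15784 (69.3%) matched RefSeq, and 1664 of them have a newer symbol. Names are those of the array, and probe positions are on mm9. limma 3.58.1 in R 4.3.3 fitted 4 group means over 12 arrays. In data simulated for the day 3 comparison with 22769 genes, 175 of 200 changed genes and 11 unchanged ones were called. The simulation had independent noise, no slide effect and changes of at least 4-fold only. Its counts therefore do not hold for smaller changes or for slide and genotype coinciding.

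A fold against a group below background is a lower bound, with the dim group set, per array, to the lowest signal of any probe well above background. Named were Socs3, the 12 largest called differences each way among genes detected on each day 3 array, the 6 largest bounds, and in each of 47 lists up to 4 called members or, with none called, the 2 largest differences. Members of lists with 12 genes or fewer, and genes outside this rule (Mt1, Mt2, Saa3, Cebpb, Cebpd, C4b, Slpi, Saa1, Itih4, Stat3, Mki67, Egr1, Egr2, Myh11, S100a8 and S100a9 among them), were given after their values were seen. Some named genes and 1 list are not reported here. Members and lists were chosen with earlier results of these data known. Alternatives covered background, normalization, filter, probe choice, moderation, slide, replicate number and each array left out. Depth is not counted on arrays, and 3 arrays per group limit the precision.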

Additional observations from a re-analysis of the deposited data

Results flagged for a closer look

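Tiam2 and Cdkn2b were lower in the KO-labelled group at day 3 and higher before challenge, with the 3 arrays of each group apart at both times and in opposite directions. The interaction of genotype and challenge was -1.75 for Tiam2 and -1.80 for Cdkn2b on the log2 scale, with limma adjusted p-values of 0.325 and 0.29, so that neither passed the threshold. A second probe of Cdkn2b gave a difference of -1.19 at day 3.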

How the results depend on the processing

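Against 253 called genes, 90 were called without a filter on dim probes, 37 without moderation, 63 from the 6 day 3 arrays alone, 0 with slide as a fixed block (limma) and 1 with slide as a random block. Leaving out 1 array in turn gave 45 (without smSocs3-KO replicate 5 at day 3) to 615 (without WT replicate 4 at day 3), and also 50 and 161 without WT replicates 3 and 1 at day 3, 110 without smSocs3-KO replicate 3 at day 3, 112 and 150 without WT replicates 1 and 3 before challenge and fewer than 112 without WT replicate 2 before challenge. At the study's threshold the count of 252 became 99 and 89 with normexp background (75th percentile and quantile), 121 with probes above background on all 12 arrays and 143 with slide as a random block, and 189 to 346 on leaving out 1 array. The difference of Socs3, 1.52, ranged from 0.985 to 2.01 on leaving out 1 array, and was 0.47 with slide as a fixed block, 1.04 with it as a random block and 0.65 with the replicate block. No paired analysis was possible because the day 3 groups share only 1 replicate number, and with the replicate block 2 genes were called, Chi3l1 and Gm3515.

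Of 45 called genes named by the rule, none reversed, but many lost their call. All 45 were lost with slide as a fixed or a random block, and 44 with the replicate block. Without moderation 38 were lost, and 28 from the 6 day 3 arrays alone. Leaving out WT replicate 3 at day 3 lost 34, as did leaving out smSocs3-KO replicate 5 at day 3, while 7 were lost without WT replicate 4 at day 3. Genes without a call that reversed with slide as a fixed block were Ciita (0.64), H2-Aa (-0.18), Thbs4 (-0.29), Tagln (0.42), Kdr (0.44), Pecam1 (-0.27), S100a9 (-0.35), Cd79b (-1.56), Cd22 (0.75), Dntt (1.02), Rag1 (0.85), Ucp1 (3.51) and Nphs1 (1.44). With slide as a random block Cd79b (-0.24), Dntt (0.14), Rag1 (0.084), Ucp1 (0.71) and Nphs1 (0.33) reversed. On leaving out 1 array, Ucp1 ranged from -3.72 to 0.028 (without WT replicate 3 at day 3), Hbb-b1 from -1.88 to 0.069 and Hba-a1 from -1.47 to 0.15 (both without smSocs3-KO replicate 5). The cause of these shifts was not tested. The median of all genes moved from -0.08 to -0.18 without the filter. Array signal near background limits the dim genes. Bounds are given only where no array of 1 day 3 group was well above background, and other dim genes, Saa3 and Chi3l1 among them, are given as fitted.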
